A study of Homo sapiens with 2 samples.

Results

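Translation initiation and elongation factors are the proteins that place ribosomes on mRNAs and carry them along the coding sequence. They were examined here in L-540, an established Hodgkin lymphoma cell line, after treatment with vorinostat, a hydroxamate inhibitor of histone deacetylases, and in the same line left untreated. Each group held 1 Affymetrix HG_U133A array of total RNA, and the labels gave neither dose nor time. There were therefore no replicates, no test was run, and every difference below compares 2 cultures. Members were all probe sets whose platform annotation gives a single gene symbol starting with EIF or EEF, except the kinase genes EIF2AK2 and EIF2AK3. They came to 99 of 22283 probe sets and stood for 48 genes. EIF1AY is Y-linked and no value is given for its 2 probe sets, which left 97 probe sets of 47 genes. These were 32 genes of initiation factors, 6 of elongation factors and 9 of regulators or other proteins named after a factor. Another 16 probe sets carried several symbols, such as those of small nucleolar RNAs hosted by the gene or of a near-identical or readthrough gene, and were left out by the rule. For that reason EEF1B2, EEF1G, EIF3C, EIF3CL, EIF4A1, EIF4A2 and EIF4EBP3 are not described. A suffix for sequence shared with other transcripts was carried by 61 of the 97 probe sets.

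In the first step of initiation, eIF2 brings the initiator tRNA to the small ribosomal subunit together with eIF1, eIF1A, eIF3 and eIF5. The eIF4 group, built around the cap-binding protein eIF4E, the scaffold eIF4G and the helicase eIF4A, recruits the mRNA. In elongation, eEF1A delivers aminoacyl-tRNAs and eEF2 moves the ribosome on by a codon. Cells adjust initiation mainly at eIF2, which stress kinases phosphorylate and the exchange factor eIF2B recharges, and at eIF4E, which the small 4E-BP proteins sequester when mTOR is inactive.

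Many mRNAs of the translation machinery start with a C and a run of pyrimidines, the 5′ terminal oligopyrimidine (TOP) motif, through which mTOR sets their translation. RefSeq promoter sequences of GRCh38.p14 were found for 34 of the 45 measured member genes. In 9 of these 34 (26.5%) an annotated start was a C followed by at least 4 more C or T, against 5.14% of 27305 genes in the table. The 10 bases before and the 20 from those starts are shown because EEF1A1, EEF2 and several eIF3 subunit genes share this feature. The capitals mark the pyrimidine run that begins at the annotated start.
EEF1A1, chr6:73521013-73521042, minus strand: cgtgaacgttCTTTTTCgcaacgggtttgc
EEF2, chr19:3985444-3985473, minus strand: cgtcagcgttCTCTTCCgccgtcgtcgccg
EIF4B, chr12:53006446-53006475, plus strand: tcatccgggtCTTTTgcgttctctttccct
EIF3D, chr22:36529147-36529176, minus strand: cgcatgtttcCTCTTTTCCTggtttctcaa
EIF3F, chr11:7987327-7987356, plus strand: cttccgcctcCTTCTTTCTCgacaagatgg
EIF3K, chr19:38619178-38619207, plus strand: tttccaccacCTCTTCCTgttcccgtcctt
EIF3M, chr11:32583821-32583850, plus strand: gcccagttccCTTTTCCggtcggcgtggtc
EIF2D, chr1:206612446-206612475, minus strand: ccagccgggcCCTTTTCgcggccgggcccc
EIF2S3, chrX:24054946-24054975, plus strand: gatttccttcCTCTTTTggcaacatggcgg

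Their log2 ratios of vorinostat over untreated lay between -0.30 (EIF4B) and 0.44 (EIF3M), with a median of -0.04, which is also the median of all 8277 measured genes. The 25 other members in the table ranged from -0.77 to 1.22 around a median of 0.01. A match at an annotated start is a description of these letters, and the start used in L-540 was not measured.

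Signals are MAS5 intensities on a linear scale, made by the authors, and each gene is given by its probe set of highest mean signal unless several are named. A signal under 68.9 units, the 40th percentile of all signals but those of control probe sets, was set to that floor before ratios were taken. After trimming 2% of the signals at each end, both arrays had a mean of 500.2, and 58.8% of probe sets lay above the floor on the vorinostat array, against 61.2% on the untreated array. The ratio of 3′ to 5′ signal was 0.850 on the vorinostat array and 0.856 on the untreated array for GAPDH, and 1.24 on the vorinostat array and 1.06 on the untreated array for ACTB. Of 8 Hodgkin cell marker genes 6 were above the floor, while the chemokine genes CCL17 and CCL22 were not. The 8 summed to 21108 units on the vorinostat array and 26580 on the untreated array. TNFRSF8, the gene of CD30, read 3228 units with vorinostat and 10777 untreated, and IRF4 14699 with vorinostat and 12032 untreated. Of marker genes of other cells, 1 of 3 for monocytes, 3 of 4 for fibroblasts and 2 of 4 for epithelium were above the floor on at least 1 array; CD14, COL3A1 and EPCAM were not. The monocyte markers summed to 195 units on the vorinostat array and 236 on the untreated array. The fibroblast markers summed to 501 units with vorinostat and 500.1 untreated, and the epithelial ones to 220.4 with vorinostat and 162 untreated. The part of RNA quality or other cells in the ratios below was not tested. With total RNA from a culture, fewer cells that express a gene and less RNA per cell cannot be told apart.

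Most members differed little between the arrays. Of the 45 measured genes 1 was at least 2-fold higher with vorinostat (2.22%, against 3.77% of all measured genes) and 0 were at least 2-fold lower (against 5.12%). At 1.5-fold, 6 genes were higher (13.3%, against 12.7% of all) and 1 was lower (2.22%, against 15.5%). The higher ones were EIF5A2, EIF4EBP2, EIF4EBP1, EIF4A3, EIF5B and EIF2B3, and the lower one was EIF5. By the median over the probe sets of each gene, a count added after seeing the data, 6 were 1.5-fold higher (against 12.0% of all) and 3 lower (against 15.1%). EIF1 and EIF4G1 then joined EIF5 on the lower side, and EIF2S1 stood in place of EIF5B among the higher ones. The SD of the log2 ratios over member genes was 0.41, against 0.59 over all measured genes. Members were bright: their median signal was 2665 units on the vorinostat array and 2472 on the untreated array. For all measured genes the median was 452 on the vorinostat array and 461 on the untreated array. Among the 2343 genes with a mean signal of at least 1000 units, a limit chosen after the values were seen, 3.33% were at least 2-fold higher and 3.12% lower. The 34 members in that range included 0 in either direction, with an SD of 0.38, against 0.53 for all genes in it.

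**Figure D1:**
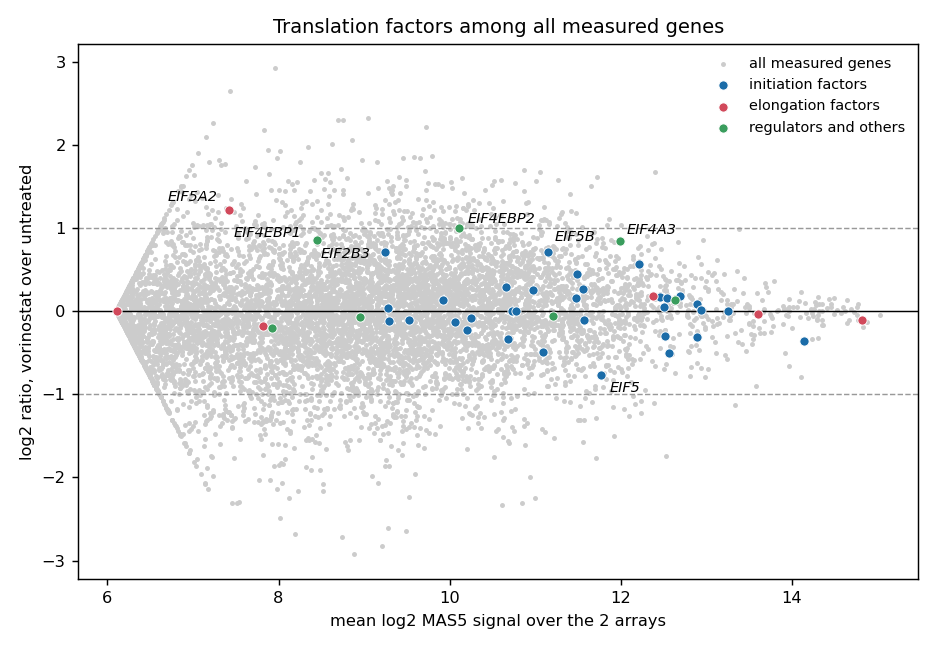
Log2 ratio of vorinostat over untreated against mean log2 MAS5 signal for all 8277 measured genes (grey) and the 45 measured member genes (coloured by class), 1 array per group. Dashed lines mark 2-fold; EIF5A2 is the member above the upper line, EIF4EBP2 lies just under it, and EEF1A1 and EEF2, at the right, lie near 0.

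Probe sets give a second look at the same RNA. Of the 91 member probe sets measured, 2 were at least 2-fold higher with vorinostat (against 3.65% of all measured probe sets) and 4 at least 2-fold lower (against 5.47%). At 1.5-fold 11 were higher (against 12.5%) and 10 lower (against 16.1%). The 2 probe sets past 2-fold on the higher side belonged to EIF5A2 and EIF4EBP2, and the 4 lower ones to EIF1, EIF5, EIF4G1 and EIF5A. In 16 of the 21 genes with more than 1 measured probe set, all went the same way, a share not counted over all genes. The 5 with mixed directions were EIF5B, EIF3A, EIF4E, EEF1D and EIF2AK1. Between the 2 brightest probe sets of these 21 genes the log2 ratios differed by a median of 0.14, against 0.25 over all 2428 genes with such a pair. This gap measures how well probe sets of a gene agree on the same RNA and says nothing of the spread between cultures. The signs of that pair were opposite in 1 of the 21 genes (4.76%), against 21.1% of the 2428. The 21 genes and the 2428 were not matched for signal.

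**Figure D2:**
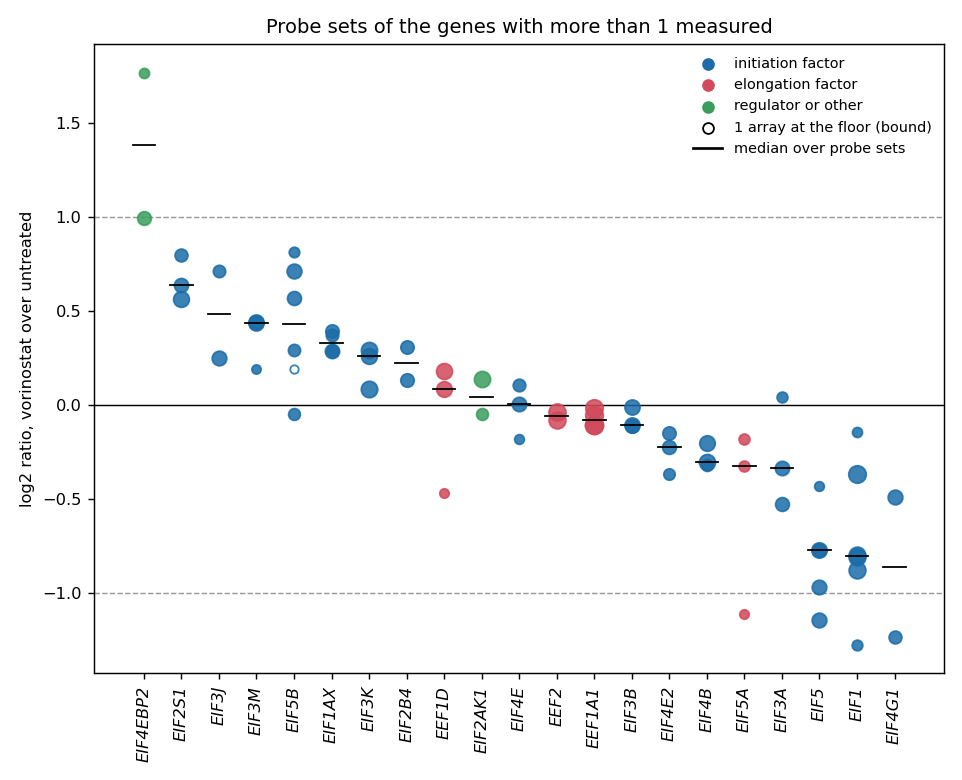
Log2 ratio of vorinostat over untreated for each measured probe set of the 21 member genes that have more than 1, ordered by the median (black bar); larger circles have higher mean signal, and dashed lines mark 2-fold. All probe sets of EIF4EBP2 and EIF2S1 lie above 0 and all those of EIF5, EIF1 and EIF4G1 below it.

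Among the factors that assemble the initiation complex and check the start codon, EIF5 and EIF1 were lower with vorinostat and EIF5B and EIF1AX were higher. EIF5 encodes the GTPase-activating protein of eIF2, which triggers GTP hydrolysis when the start codon is met. Its signal was 2665 units on the vorinostat array, against 4555 on the untreated array, 1.71-fold lower. Each of its 5 probe sets was lower, with log2 ratios from -1.15 to -0.43 and a median of -0.77. EIF1, whose product keeps the scanning complex open and rejects poor start codons, had 15933 units with vorinostat and 20511 units untreated on its brightest probe set, 1.29-fold lower. Of its other 5 probe sets, 4 gave larger differences and the dimmest a log2 ratio of -0.14. The next 3 in brightness read 7536, 7436 and 6981 units on the vorinostat array, against 13860, 12904 and 12208 on the untreated array, and the median log2 ratio over all 6 was -0.80 (1.74-fold lower). The probe set of EIF1 that has no suffix for shared sequence was dim, with 124 units with vorinostat and 301 units untreated (2.42-fold lower).

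EIF5B, the GTPase that joins the ribosomal subunits, was higher with vorinostat: 2908 units, against 1772 in untreated cells (1.64-fold). Of its 6 probe sets 5 were higher, 1 of them only as a bound, up to a log2 ratio of 0.81, and 1 had a log2 ratio of -0.05. The median over all 6 was 0.43 (1.35-fold higher). Those without the suffix for shared sequence had only 0.29 and -0.05. EIF1AX, the partner of eIF1 in scanning, had 1783 units on the vorinostat array and 1458 on the untreated array, and its 4 probe sets gave log2 ratios between 0.29 and 0.39. The EIF1 paralogue EIF1B hardly differed (1698 units with vorinostat and 1703 units untreated). EIF2D, which can deliver tRNA without GTP, had 709.6 units with vorinostat and 765 untreated.

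The subunit genes of eIF2 had log2 ratios on both sides of 0. On their brightest probe sets all 3 lay within 1.5-fold, as did 71.8% of all measured genes. EIF2S1 encodes the alpha subunit, the one that stress kinases phosphorylate. Its signal was 5801 units with vorinostat and 3918 units without, 1.48-fold higher, and its other probe sets were 1.56-fold and 1.74-fold higher. EIF2S2, the beta subunit that contacts eIF5 and eIF2B, read 5094 units on the vorinostat array, against 7233 on the untreated array (1.42-fold lower). Its other probe set was under the floor on both arrays. EIF2S3, the GTP-binding gamma subunit, stood at 1024 units with vorinostat and 1125 units untreated (1.10-fold lower).

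Of the exchange factor eIF2B, 4 of 5 subunit genes had log2 ratios between -0.12 and 0.13 on their brightest probe sets. EIF2B3, which encodes the gamma subunit of the catalytic part, was the exception: 777 units on the vorinostat array, against 476 on the untreated array, 1.63-fold higher on its only probe set. The catalytic epsilon subunit gene EIF2B5 had 602 units with vorinostat and 652 untreated, and EIF2B1, the alpha subunit gene, had 1183 with vorinostat and 1256 untreated. EIF2B2, the beta subunit gene, read 629 units with vorinostat and 611 untreated. EIF2B4, for the delta subunit, read 1013 units with vorinostat and 924 untreated. EIF2AK1, the heme-regulated eIF2 kinase, had 6695 units on the vorinostat array and 6088 on the untreated array (log2 ratio 0.14), and its dimmer probe set gave -0.05.

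The genes of eIF3, the large scaffold that binds the small subunit and blocks early joining, differed little. All 12 measured subunit genes lay within 1.5-fold, as did 71.8% of all measured genes. Of the 12, 10 were above a log2 ratio of 0 (against 47.0% of all), EIF3E by less than 0.01, and the median was 0.16 with an SD over subunits of 0.20. Signals spanned 1469 to 9754 units on the vorinostat array and 1852 to 9737 on the untreated array. EIF3M had the highest ratio, with 3356 units with vorinostat and 2472 untreated (1.36-fold higher, and 1.35-fold on its second probe set). EIF3A, the gene of the core subunit, had the lowest: 1469 units on the vorinostat array, against 1854 on the untreated array (1.26-fold lower). Its second probe set had a log2 ratio of -0.53. Its dimmest, at 216 units with vorinostat and 209 untreated, had 0.04.

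The remaining eIF3 subunit genes had log2 ratios between -0.11 and 0.27 on their brightest probe sets. EIF3E read 9754 units with vorinostat and 9737 untreated. EIF3B, like EIF3A the gene of a core subunit, read 2922 units with vorinostat and 3146 untreated. EIF3I was 1.20-fold higher with vorinostat and EIF3J, whose product is loosely bound, 1.19-fold. The second probe set of EIF3J was 1.64-fold higher, with 625 units on the vorinostat array and 381 on the untreated array. EIF3D, whose product can bind the cap of some mRNAs itself, had a log2 ratio of 0.17, and EIF3G, of an RNA-binding subunit, 0.16. The MPN domain subunit genes EIF3F and EIF3H had 0.18 and 0.16, and the peripheral subunit genes EIF3K and EIF3L 0.09 and 0.06.

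**Figure D3:**
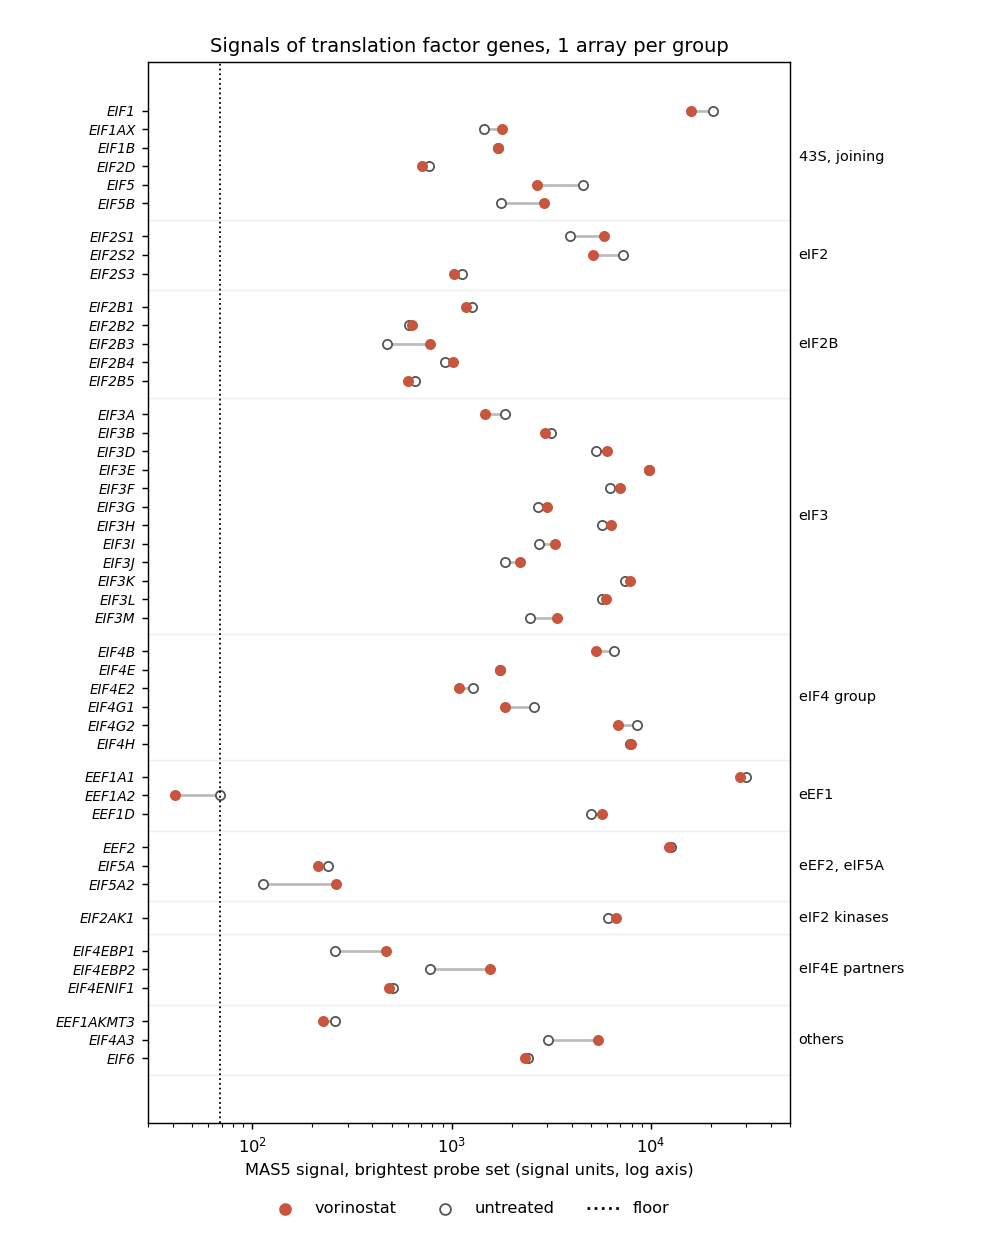
MAS5 signals (log axis) of the 45 measured member genes on the vorinostat array (filled) and the untreated array (open), grouped by complex, 1 array per group; the dotted line is the floor of 68.9 units. The gap is widest for EIF5A2, EIF4EBP2 and EIF4EBP1 where neither signal is under the floor, and hardly visible for EIF1B, EIF3E, EIF4E and EIF4H.

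The 6 genes of the eIF4 group had a median log2 ratio of -0.26, with 4 below 0 (against 53.0% of all measured genes). EIF4G1, the main scaffold, read 1841 units with vorinostat and 2583 units without (1.40-fold lower). Its second probe set was 2.35-fold lower, at 418 units on the vorinostat array and 984 on the untreated array. EIF4G2, a scaffold that lacks the eIF4E site, had 6836 units with vorinostat and 8487 untreated, 1.24-fold lower, and its other probe set was under the floor on both arrays. EIF4B, which stimulates the helicase, was 1.23-fold lower (5269 units with vorinostat and 6499 untreated), with log2 ratios between -0.32 and -0.20 on all 3 probe sets. The second helicase cofactor gene, EIF4H, had 7910 units with vorinostat and 7850 untreated.

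The cap-binding protein gene EIF4E itself hardly differed: 1754 units on the vorinostat array and 1746 on the untreated array, with probe sets between -0.18 and 0.11. Its paralogue EIF4E2, linked to translational repression, read 1089 units with vorinostat and 1272 without, and its 3 probe sets were all lower, by log2 ratios of -0.36 to -0.15. On the brightest probe sets, the genes of the eIF4E-sequestering 4E-BPs had the highest ratios among members after EIF5A2. By the median over probe sets EIF4EBP2, with a log2 ratio of 1.38, stood above EIF5A2, with 1.22. EIF4EBP2 read 1558 units with vorinostat, against 782 untreated, 1.99-fold higher. Its second probe set had 275 units with vorinostat and 80.6 untreated, 3.41-fold higher, with the untreated signal near the floor of 68.9 units. EIF4EBP1, on its single probe set, had 469 units on the vorinostat array and 260.1 on the untreated array (1.80-fold higher). EIF4ENIF1, which carries eIF4E into the nucleus, had 485.0 units with vorinostat and 508 untreated.

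Of the 6 elongation factor genes, 5 were above the floor on both arrays, and 4 of these had log2 ratios between -0.18 and 0.18. EEF1A1, the main tRNA carrier, read 27929 units with vorinostat and 30096 untreated, and its 4 probe sets gave log2 ratios between -0.11 and -0.02. All 4 carry the suffix for shared sequence, and this gene has many processed copies in the genome. EEF2 had 12274 units on the vorinostat array and 12599 on the untreated array. EEF1D, a subunit of the nucleotide exchange factor of eEF1A, had 5664 units with vorinostat and 4987 without (1.14-fold higher); a dim probe set, at 94.6 units with vorinostat and 131 untreated, went the other way with a log2 ratio of -0.47. EEF1A2, the form of muscle and neurons, was under the floor with vorinostat (40.7 units) and at 69.0 units, just above the floor, in untreated cells, so it has no fold.

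The exception was EIF5A2, the less widely expressed of the genes for eIF5A, a factor that helps ribosomes past proline stretches and carries the amino acid hypusine. Its only probe set had 263 units on the vorinostat array, against 113 on the untreated array, 2.33-fold higher. That probe set carries the suffix for shared sequence. With the floor raised to the 60th percentile, EIF5A2 had a bound of 0.20 in log2 ratio and was no longer 2-fold apart. EIF5A read 212 units with vorinostat and 240.4 untreated (1.13-fold lower). Its dimmest probe set was 2.16-fold lower, at 75.3 units with vorinostat and 163 untreated.

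Among the other proteins named after factors, EIF4A3, the helicase of the exon junction complex in splicing, was 1.79-fold higher on its single probe set. It had 5440 units with vorinostat and 3037 untreated. EIF6, which keeps new large ribosomal subunits from joining early, had 2317 units with vorinostat and 2416 untreated. The lysine methyltransferase gene EEF1AKMT3 had 227 units on the vorinostat array and 260.4 on the untreated array, and EEF1AKMT2 and EEF2KMT were under the floor on both.

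The 150 bases before the annotated start are shown for EIF4EBP2, EIF5A2, EIF4A3, EIF5B and EIF2B3, which were at least 1.5-fold higher, and for EIF5, which was lower, so that the differences can be set beside the sequence. Sequences are from RefSeq (GRCh38.p14), and of the 2 starts listed for EIF5 the upstream one is printed. Capitals mark matches on either strand to a GC box, written GGGCGG, or to a CCAAT box. In EIF4A3 they mark an E-box, written CACGTG. The window of EIF5B held no match. No match overlapped another in these windows, and EIF4EBP1 is not shown.
EIF4EBP2, chr10:70403995-70404144, plus strand: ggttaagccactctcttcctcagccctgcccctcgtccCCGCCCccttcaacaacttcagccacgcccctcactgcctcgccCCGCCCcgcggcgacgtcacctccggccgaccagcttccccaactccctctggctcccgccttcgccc
EIF5A2, chr3:170908638-170908787, minus strand: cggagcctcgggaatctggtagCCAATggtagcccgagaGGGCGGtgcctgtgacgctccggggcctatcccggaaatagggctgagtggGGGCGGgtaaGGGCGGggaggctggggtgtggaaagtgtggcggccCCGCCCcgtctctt
EIF4A3, chr17:80147129-80147278, minus strand: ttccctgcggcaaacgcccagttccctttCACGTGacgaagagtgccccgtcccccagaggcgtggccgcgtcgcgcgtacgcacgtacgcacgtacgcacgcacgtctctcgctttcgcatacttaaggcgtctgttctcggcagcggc
EIF5B, chr2:99337239-99337388, plus strand: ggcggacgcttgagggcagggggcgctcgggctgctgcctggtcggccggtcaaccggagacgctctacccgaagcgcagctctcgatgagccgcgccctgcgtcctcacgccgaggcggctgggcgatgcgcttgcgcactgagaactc
EIF2B3, chr1:44986596-44986745, minus strand: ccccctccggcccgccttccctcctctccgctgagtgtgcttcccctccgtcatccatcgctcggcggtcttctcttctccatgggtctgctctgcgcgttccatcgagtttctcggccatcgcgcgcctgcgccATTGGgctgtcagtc
EIF5, chr14:103334087-103334236, plus strand: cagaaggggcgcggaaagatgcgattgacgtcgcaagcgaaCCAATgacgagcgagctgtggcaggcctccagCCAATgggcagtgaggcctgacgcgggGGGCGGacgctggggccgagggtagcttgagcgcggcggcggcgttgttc

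A GC box was present in the same window of 58.7% of the 46 member promoters, against 36.8% of all 35116 promoters in the table. The CCAAT box was found in 30.4% of member promoters and 23.5% of all, and the E-box, which MYC with MAX can bind, in 15.2% and 4.57%. Of the printed windows, those of EIF4EBP2, EIF5A2 and EIF5 held GC boxes, and a CCAAT box stood before EIF5A2, EIF5 and EIF2B3. Searched on both strands as well, the TATA box (TATAAA) was found in 2.17% of member promoters and 6.71% of all, and the ETS core (CCGGAAG) in 15.2% and 6.85%. The NRF1 core (GCATGCGC) was found in 4.35% and 2.17%, and the CRE core (TGACGTCA) in 2.17% and 1.40%. These 4 are absent from the printed windows.

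Genes that act beside the factors were taken from lists of the translation pathway. The counts below stand against 3.77% of all measured genes at least 2-fold higher and 5.12% lower, and 12.7% higher and 15.5% lower at 1.5-fold. Of 54 measured cytosolic ribosomal protein genes 0 were 2-fold apart, and their median log2 ratio was 0.03 with an SD of 0.16. RPL27A, at 212 units with vorinostat and 372 untreated on its 1 measured probe set, was 1.75-fold lower. That probe set carries the suffix for shared sequence. It was dim beside the median of these genes, 19229 units with vorinostat and 19020 untreated. RPL27A was the only one past 1.5-fold on the brightest probe sets. By the median over 3 probe sets each, RPL38 had a log2 ratio of -0.67, RPL18 -0.50 and RPL31 0.54. The brightest probe sets of these genes gave 0.11, 0.05 and 0.13. The 7 member genes listed as classic TOP mRNAs (EEF1A1, EEF1D, EEF2, EIF3E, EIF3F, EIF3H and EIF4B) had a median of 0.00 and lay between -0.30 and 0.18. Termination and ribosome recycling genes, 7 measured, were all within 1.5-fold around a median of 0.14, with the ribosome rescue gene PELO at 0.44, HBS1L, its partner, at 0.36 and MCTS1 at -0.31.

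Of 4 measured genes of poly(A)-binding proteins and their partners, 1 was 2-fold higher (against 3.77% of all measured genes) and 0 lower (against 5.12%). PAIP2B, an inhibitor of the poly(A)-binding protein, read 217 units on the vorinostat array and 80.8 on the untreated array. It was 2.69-fold higher with vorinostat on its only probe set. The untreated signal was near the floor, and both signals lay under the alternative floor at the 60th percentile, 228 units. PABPC1 itself had 20421 units with vorinostat and 20359 untreated. PAIP1, which promotes initiation, had a log2 ratio of -0.20.

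Of 17 measured regulators of eIF2 and eIF4E, 0 were 2-fold higher (against 3.77% of all) and 1 was lower (against 5.12%). At 1.5-fold 3 were higher (against 12.7%) and 3 lower (against 15.5%). MLST8, a subunit of mTOR complexes, had 290.3 units with vorinostat and 607 untreated (2.09-fold lower). PPP1R15A, which directs a phosphatase to eIF2 alpha, had 472 units with vorinostat and 922 untreated (1.95-fold lower, and lower on both probe sets). LARP1, which binds TOP mRNAs, had 1743 units with vorinostat and 2671 untreated (1.53-fold lower, and lower on all 3 probe sets). The kinases that phosphorylate eIF4E were higher: MKNK1 with 1902 units on the vorinostat array and 1034 on the untreated array (1.84-fold), and MKNK2 with 6135 with vorinostat and 3821 untreated (log2 ratio 0.68). CYFIP2, related to an eIF4E-binding protein, was higher with vorinostat by 1.76-fold, or by 2.20-fold when the median of its 2 probe sets is taken. MTOR, at 290.0 units with vorinostat and 226 untreated, had a log2 ratio of 0.36.

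Enzymes that modify elongation factors and the factors of mitochondria were also measured. Of 4 hypusine and diphthamide enzyme genes 0 were 2-fold apart. DOHH, the hydroxylase that completes hypusine on eIF5A, had 291 units with vorinostat and 506 untreated (1.74-fold lower); DHPS, which makes the first step, had a log2 ratio of -0.07 and DPH2, of diphthamide synthesis on eEF2, -0.38. Of 5 mitochondrial translation factor genes 0 were 2-fold apart: the initiation factor gene MTIF2 had a log2 ratio of -0.56, the elongation factor genes TUFM and TSFM 0.43 and 0.27.

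**Figure D4:**
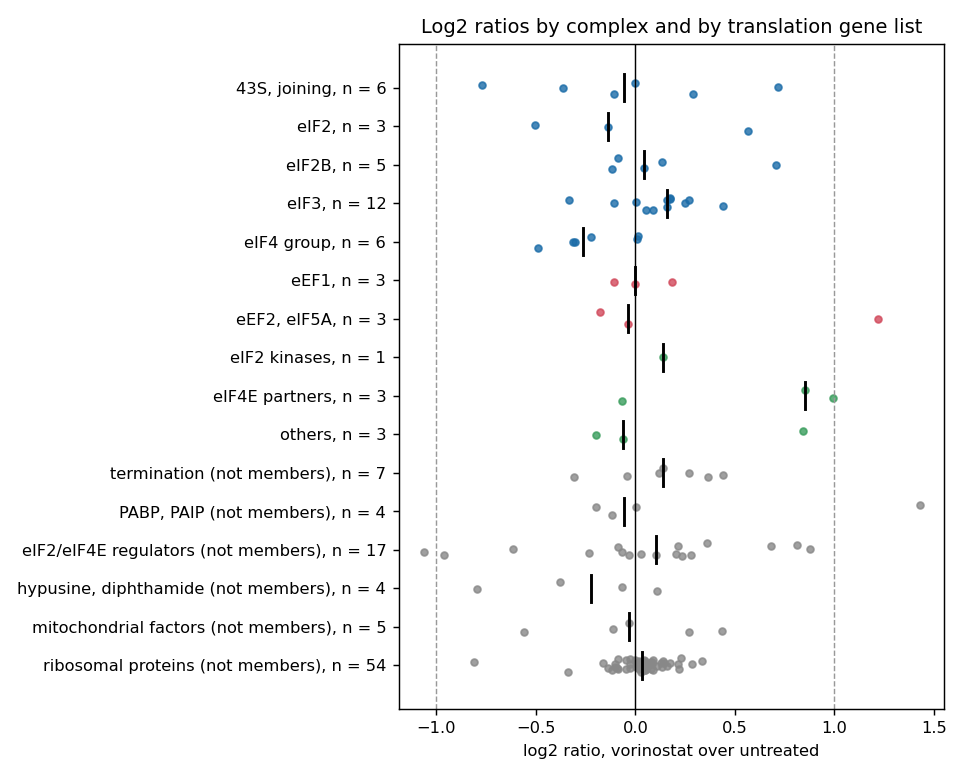
Log2 ratios of vorinostat over untreated for each measured gene, by complex of the member genes (coloured) and by list of other translation genes (grey), with medians as black bars and 2-fold as dashed lines. Ribosomal protein genes and eIF3 subunits cluster near 0, the 4E-BP genes lie near the upper line, and PAIP2B and EIF5A2 lie beyond it.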

How the data were processed

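Total RNA of 2 L-540 cultures was hybridised to 1 HG_U133A array per group, per the labels' protocols. The deposited values are MAS5 signal intensities, 1 per probe set, as the submitters' processing notes name that method. Its version, its scaling target and any detection calls are not given in the sources used here, and the scaling was kept. Symbols came from the platform annotation; the Entrez IDs of all 99 member probe sets were found in the RefSeq table of GRCh38.p14, which changed 0 symbols.

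The 68 control probe sets were left out. Signals were floored at the 40th percentile of both arrays (68.9 units; the highest of 27 poly-A control probe sets read 43.1), and log2 ratios were taken as vorinostat over untreated. Probe sets at the floor on both arrays were not measured, which held for 6 of 97 member probe sets. Each gene was represented by its measured probe set of highest mean log2 signal, giving 8277 genes. With 1 array per group there is no test; 2-fold is a rule of size, and the number of arrays limits the precision. MAS5 signals of different probe sets are not comparable levels.

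Values were named for members at least 1.5-fold apart, the brightest and dimmest of each complex, all of complexes with 5 genes or fewer and genes with mixed probe sets; the rest were added for completeness, along with listed genes at least 2-fold apart or among the 3 largest of a list. Alternatives were other scalings, floors, an offset, probe set summaries and thresholds. The steps were tested on simulated data, with differences larger than 2-fold set only in genes well above the floor. Smaller differences and dim genes were not covered. The members and lists were chosen with earlier results of these data known. Work used Python 3.11.15, pandas 2.3.3, numpy 2.4.6 and statsmodels 0.14.6.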

Additional observations from a re-analysis of the deposited data

How the results depend on the processing

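The count of members at least 2-fold higher was 1 as deposited. It was 2 with both arrays scaled to the same median and 2 with the median over probe sets, where EIF4EBP2 (log2 ratio 1.12 and 1.38) joined EIF5A2. Without shared-sequence probe sets the count was 1, and the gene was EIF4EBP2 (log2 ratio 1.77). The only probe set of EIF5A2 was then left out. Raising the floor to the 60th percentile gave 0 and left EIF5A2 a bound of 0.20; the count was also 0 among genes of mean signal of at least 1000 units, a setting added after seeing the data. The count lower was 0, and 1 without shared-sequence probe sets, where EIF1 rests on a dim probe set (log2 ratio -1.27). At 1.5-fold 6 were higher and 1 lower, and with the median over probe sets, a setting added after seeing the data, 6 and 3; at 3-fold 0 and 0. Scaling to equal medians moved the median of initiation factors to 0.14, against 0.01 as deposited, and that of all measured genes to 0.08, against -0.04; the elongation median stayed within 0.1 of -0.02 in the 7 alternatives that kept at least 5 genes but changed sign, to 0.06 with equal medians and 0.04 after quantile normalization. Only EEF1A2, whose ratio the floor sets, was left without shared-sequence probe sets, so that value says nothing of the class. EEF1A2 also enters the elongation median of -0.02. Over the 5 elongation factor genes above the floor on both arrays the median was -0.04. Of 55 recomputed ratios of the 7 members at least 1.5-fold apart, 55 kept their sign and 51 stayed at least 1.5-fold. These genes were picked by their ratio on the same arrays, and several settings left a ratio unchanged. The kept signs are therefore no independent support and say nothing of the spread between cultures. EEF1A2 reached a log2 ratio of -0.76 with the floor at the 25th percentile. No paired analysis was possible because each group holds 1 array.

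Without replicates, differences between cultures cannot be told apart from the treatment, and dim probe sets near the floor give only bounds.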
